A study of Ovis aries with 6 samples.

Results

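The enzymes that build fatty acids, triglycerides and cholesterol, together with the regulators that set their transcription, were followed in sheep cells of the adipose stromal vascular fraction that overexpressed the homeobox transcription factor MEOX2. The genes were taken by name: 37 symbols of lipid and sterol synthesis were looked up in the gene names of the deposited table, and 35 of its 26425 rows matched, 19 of 19 in the fatty acid and glycerolipid branch and 16 of 18 in the sterol branch. FDPS and SC5D were not analysed here. Of 6 RNA sequencing libraries, 3 came from cells overexpressing MEOX2 and 3 from the control group, which the labels call NC without spelling it out. The stromal vascular fraction is the mixed cell population left when mature fat cells are removed from digested adipose tissue, and it contains adipocyte precursors; the labels give the cell type of all 6 samples as adipocyte. The column names carry the prefix pHBLV for both groups. Time after gene transfer, culture medium and differentiation stage are not stated, nor is whether the 3 samples of a group were separate cultures or animals, so p-values describe the spread among these libraries and that spread may be technical.

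Fatty acid synthesis starts from cytosolic acetyl-CoA, which ACACA carboxylates and FASN assembles into palmitate; elongases and desaturases modify the chain, acyl-CoA synthetases activate it, and acyltransferases join it to glycerol. Cholesterol synthesis runs from acetyl-CoA through mevalonate and squalene to lanosterol and then to cholesterol. Transcription of both routes is driven by the sterol regulatory element binding proteins, SREBF1 mainly for fatty acids and SREBF2 mainly for sterols, which SCAP escorts out of the endoplasmic reticulum unless INSIG1 or INSIG2 holds them back. In ruminants acetate from the rumen is a main carbon source for fatty acid synthesis in adipose tissue, and fat cells store the product as triglyceride.

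Whole reads recovered from the FPKM values (reads scaled to gene length and library size) totalled 11772772 to 12230863 per library. MEOX2 itself was at 153, 108 and 138 FPKM in the overexpressing libraries, against 10.8, 10.1 and 9.03 FPKM in NC libraries. Its log2 change was 3.60 (SE 0.13; limma adjusted p = 1.15e-05), and an exact two-sided permutation test gave p = 0.1, the smallest value that 3 against 3 libraries allow. The first principal component, with 34.0% of the variance, separated the groups. The second, with 22.2%, had NC library 3 (score 21.2) and NC library 2 (-14.2) at its opposite ends. The 12 stromal progenitor markers summed to 15446 to 17067 FPKM with MEOX2 and 14157 to 14818 FPKM in NC. COL1A1, DCN and LUM made up most of these sums, while DLK1 and PI16 had at most 2 and 8 reads in any library and CD34 was at 0.380 to 0.920 FPKM with MEOX2 and 1.19 to 1.59 FPKM in NC. Mature adipocyte markers were mixed: LEP and RETN had no read in any library, whereas RBP4 was at 381 to 431 FPKM with MEOX2 and 415 to 501 FPKM in NC, and LPL at 36.3 to 44.5 and 37.7 to 42.3 FPKM. Markers of other cells were mixed too. PTPRC (leukocytes), CDH5 (endothelium) and MSLN (mesothelium) had at most 4 reads in any library and MYOD1 (skeletal muscle) none. So few reads were found for 2 of 8 leukocyte, 3 of 6 endothelial, 2 of 4 mesothelial and 5 of 5 skeletal muscle markers with a row. Other markers had more, with up to 145 reads for CD163, 124 for CD68, 33 for EGFL7 and 29 for KRT8. CD14, a leukocyte marker, was at 109 to 123 FPKM with MEOX2 and 100.4 to 109 FPKM in NC.

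All 35 genes passed the filter of a mean of at least 1 FPKM, so none was lost to low values. FADS1 and ACSL3 rose with MEOX2, none fell, and 33 were not called by limma at an adjusted p of 0.05 on log2(FPKM + 1) values (the log2 of FPKM plus a pseudocount of 1). Of all 13121 genes tested, 2.67% were called: 1.51% rose and 1.16% fell. In the fatty acid and glycerolipid branch 2 of 19 genes rose. In the sterol branch 0 of 16 were called by limma, and 0 by limma voom, which was run on the recovered reads and called 4.37% of all genes. An unadjusted limma p under 0.05 was found for 2 of the 16, beside 13.4% of all genes tested. The median log2 change was 0.02 in the fatty acid and glycerolipid branch and 0.01 in the sterol branch, beside 0.00 over all genes tested.

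**Figure D1:**
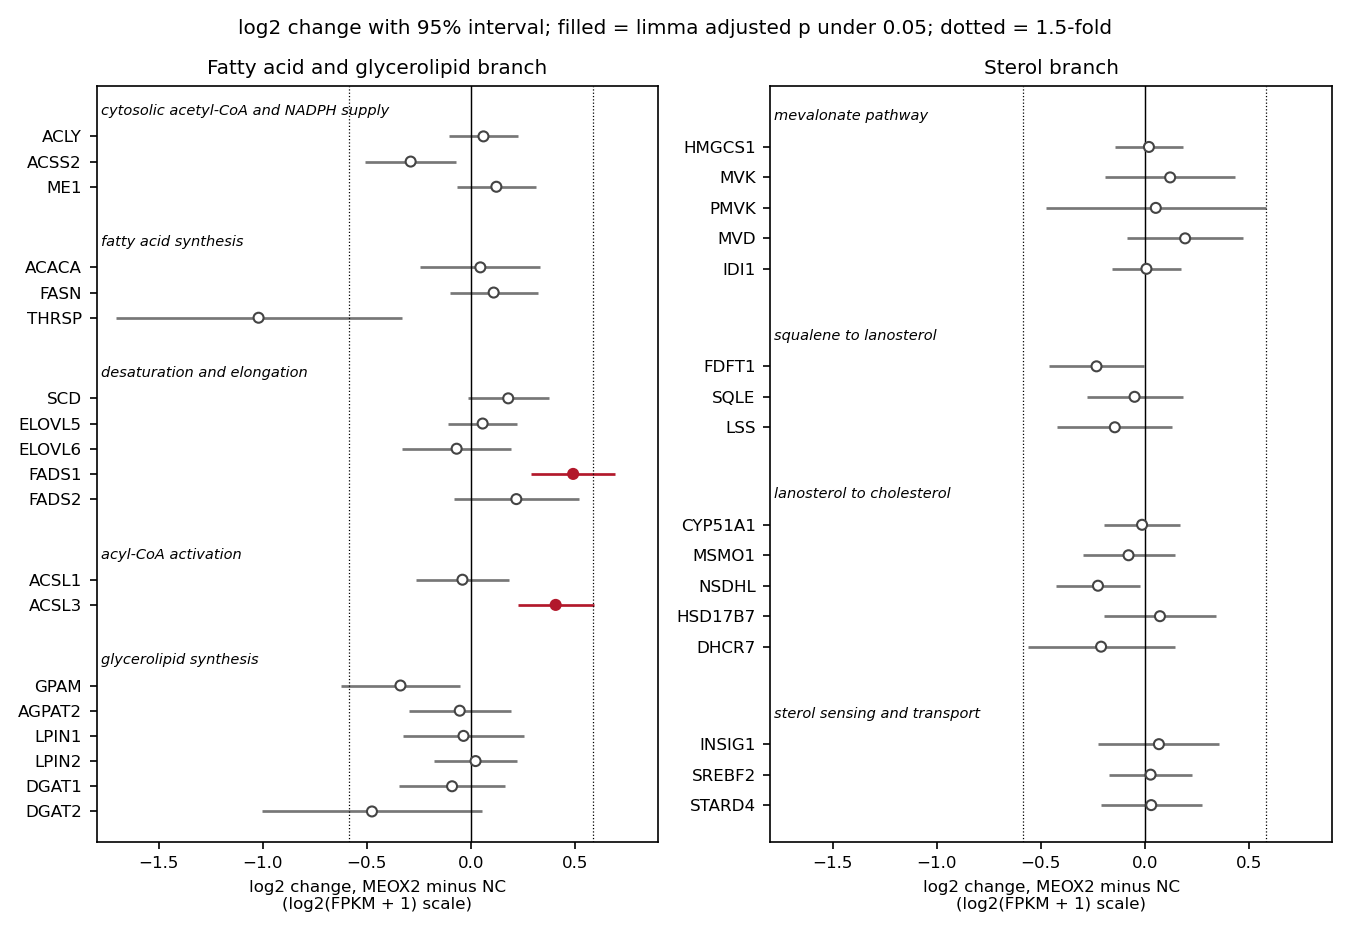
Change of each gene with MEOX2 overexpression, as the log2 difference MEOX2 minus NC on the log2(FPKM + 1) scale (x axis), with limma's 95% interval as a line; genes run down the page by role, filled red points passed an adjusted p of 0.05 and dotted lines mark 1.5-fold either way. FADS1 at 0.49 and ACSL3 at 0.41 are the filled points, THRSP has the lowest value at -1.02, and all 16 sterol intervals lie inside the dotted lines.

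Transcripts of both routes were present in every library. The median level was 18.4 FPKM over the fatty acid and glycerolipid genes and 23.9 FPKM over the sterol genes, against 11.5 FPKM over all genes tested. On this scale, which corrects for gene length, ELOVL5 had the highest mean over the 6 libraries with 187 FPKM, followed by ME1 with 120 FPKM, and THRSP and DGAT2 had the lowest with 2.56 FPKM each. Among sterol genes HMGCS1 was highest at 70.0 FPKM and LSS lowest at 7.07 FPKM.

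**Figure D2:**
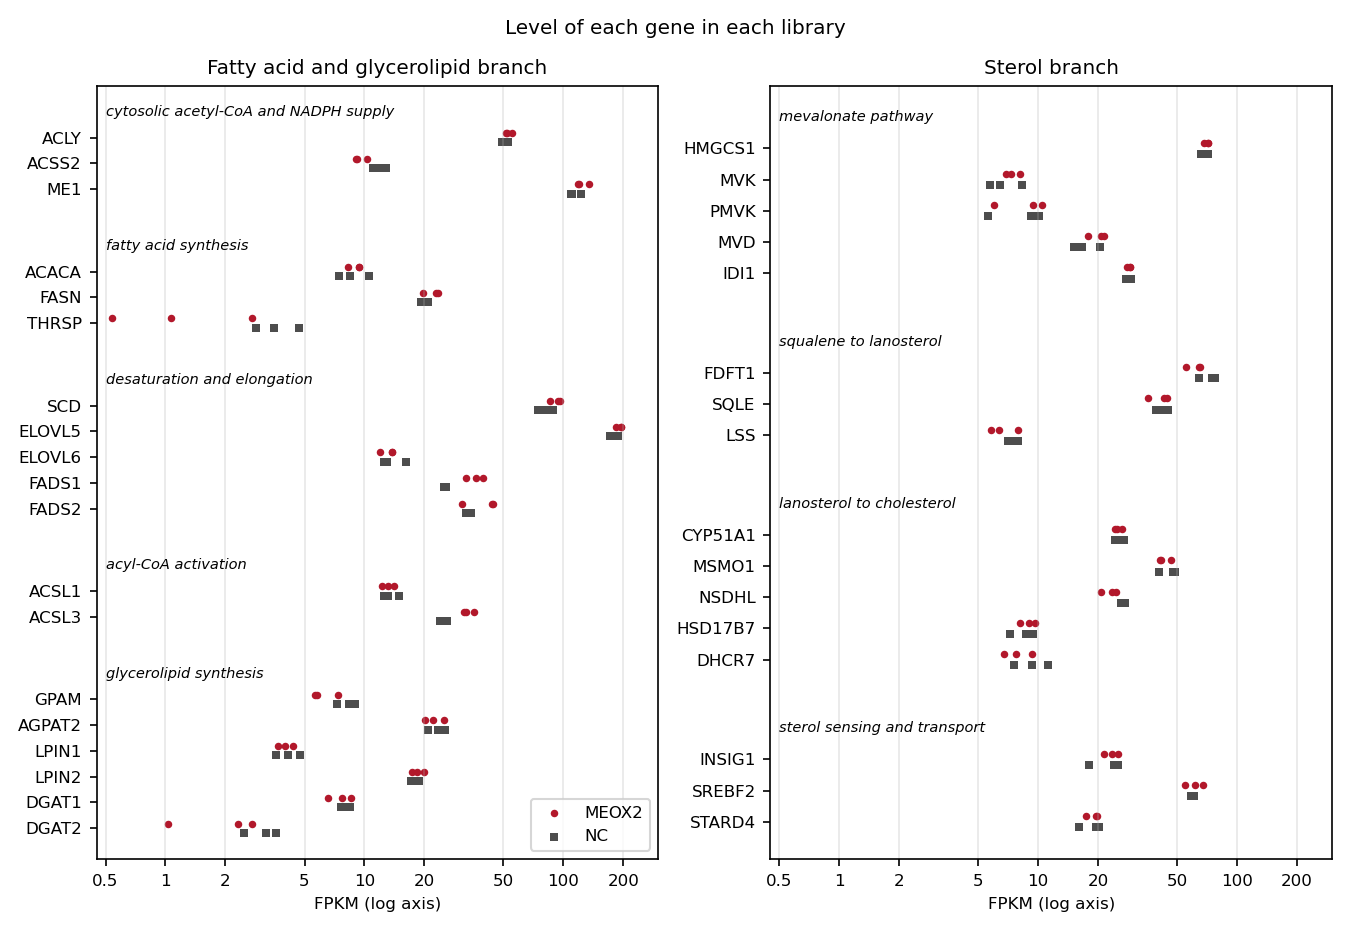
FPKM of the 35 genes in each library on a log axis, grouped by role; red circles are the 3 MEOX2 libraries and grey squares, drawn lower in each row, the 3 NC libraries. The groups separate fully for FADS1 and ACSL3 with MEOX2 to the right, and for ACSS2, THRSP and NSDHL with MEOX2 to the left; in the other 30 rows they overlap.

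FADS1, the front-end desaturase that completes arachidonic and eicosapentaenoic acid, showed the largest rise of the 35 genes. It was at 39.6, 32.6 and 36.6 FPKM in MEOX2 libraries, against 25.7, 25.2 and 25.4 FPKM in NC libraries. Every MEOX2 library lay above every NC library, and the NC libraries were nearly equal. The means were 36.3 ± 3.54 and 25.4 ± 0.220 FPKM (MEOX2 and NC, SD, n = 3 each), a 1.43-fold difference, with a log2 change of 0.49 (SE 0.09, 95% interval 0.29 to 0.69, limma adjusted p = 0.0244). FADS1 stayed called without MEOX2 library 2 and lost its call without any other single library, with limma adjusted p values of 0.0302 to 0.107 and log2 changes of 0.43 to 0.56 over the 6 such fits. It was also called by limma voom (adjusted p = 0.00111) but not by limma without a filter on low values (adjusted p = 0.0534).

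ACSL3, an acyl-CoA synthetase of the endoplasmic reticulum and of nascent lipid droplets, was the other gene that rose. It was at 32.6, 31.8 and 35.7 FPKM in MEOX2 libraries, against 24.8, 24.0 and 25.9 FPKM in NC libraries. The groups did not overlap, and the libraries of each group lay close together. The 1.34-fold difference corresponded to a log2 change of 0.41 (SE 0.08, 95% interval 0.22 to 0.59, limma adjusted p = 0.0370). ACSL3 stayed called without NC library 3 and lost its call without any other single library (limma adjusted p = 0.0497 to 0.161), while the log2 change stayed between 0.36 and 0.44. By limma voom the adjusted p was 0.00414, whereas limma did not call the gene without a filter on low values (adjusted p = 0.0542) or without an intensity trend (0.0698).

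FADS1, FADS2 and FADS3 lie on chromosome 21 (coordinates of the deposited table; genome build not stated): FADS1 at 39652537 to 39665108 on the minus strand, FADS2 at 39754363 to 39790860 on the plus strand, and FADS3 at 39798098 to 39813053, with 89254 bases between FADS1 and FADS2. FADS2, the desaturase of an earlier step of the same polyunsaturated pathway, was at 43.7, 30.9 and 44.4 FPKM in MEOX2 libraries, against 34.3, 32.6 and 33.7 FPKM in NC libraries. MEOX2 library 2 was the lowest of all 6 and the other MEOX2 libraries the highest, so the groups overlapped (log2 change 0.22, 95% interval -0.08 to 0.52, limma adjusted p = 0.550). Without that library the log2 change of FADS2 was 0.38, and its adjusted p of 0.0771 still missed the threshold. FADS3, not among the 35 genes and of less certain enzymatic role, was at 46.4, 42.1 and 45.3 FPKM with MEOX2 and at 38.8, 38.9 and 38.3 FPKM in NC. Its groups did not overlap, with a log2 change of 0.20 and an unadjusted p of 0.0249 that gave an adjusted p of 0.262. The ratio of FADS1 to FADS2 within a library was 0.906, 1.05 and 0.824 with MEOX2 and 0.749, 0.774 and 0.754 in NC, where it hardly varied. This ratio was chosen after the values were seen.

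Other chain-modifying enzymes differed by less. SCD, which introduces the double bond of oleic acid, was at 96.6, 86.1 and 93.9 FPKM with MEOX2 and 81.0, 75.01 and 88.3 FPKM in NC; the ranges overlapped by a narrow margin, and its log2 change was 0.18 (95% interval -0.02 to 0.37, limma adjusted p = 0.426). The elongases ELOVL5, which lengthens polyunsaturated chains, and ELOVL6, which lengthens palmitate, had log2 changes of 0.06 (95% interval -0.11 to 0.22) and -0.07 (-0.33 to 0.19). ELOVL5 was at 194.9, 183 and 194.2 FPKM with MEOX2 and 172, 189.4 and 189.1 FPKM in NC, with NC library 1 the lowest, and ELOVL6 at 13.2 ± 0.986 and 13.9 ± 2.05 FPKM (MEOX2 and NC, SD, n = 3 each). Of the 5 members that desaturate or elongate, 1 rose (FADS1) and 4 were not called, where 1.51% of all genes tested rose.

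ACSL1, the acyl-CoA synthetase most typical of mature fat cells, was at 14.1, 12.2 and 13.2 FPKM with MEOX2 and 13.2, 15.01 and 12.6 FPKM in NC, with interleaved libraries and a log2 change of -0.04 (95% interval -0.27 to 0.18). ACSL3 therefore exceeded ACSL1 2.31-, 2.595- and 2.71-fold within MEOX2 libraries and 1.88-, 1.60- and 2.05-fold within NC libraries, a ratio chosen after the values were seen. ACSL4, which prefers arachidonic acid, and ACSL5 were not called either, at 45.2 ± 1.13 and 35.4 ± 1.998 FPKM with MEOX2 and 51.5 ± 5.91 and 36.7 ± 0.646 FPKM in NC (SD, n = 3 each). ACSL6 had at most 12 reads in any library.

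**Figure D3:**
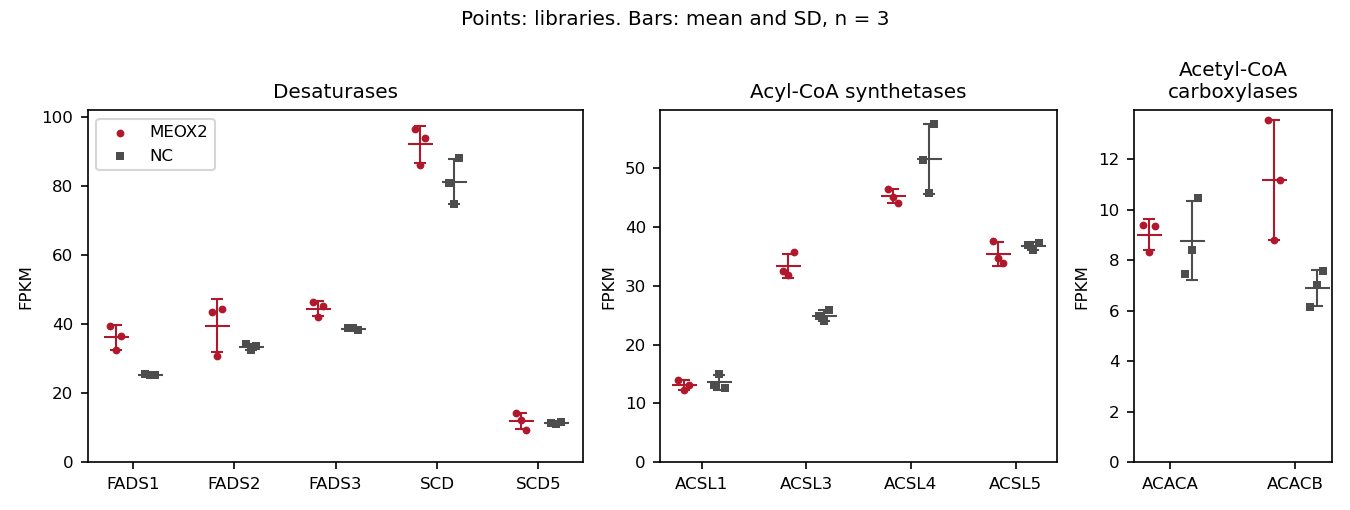
FPKM (y axis, from 0) of related enzymes in MEOX2 (red circles) and NC (grey squares) libraries, with the mean and SD of each group of 3. FADS1 and ACSL3 stand clear of their NC libraries, FADS2 has 1 MEOX2 library at 30.9 FPKM below all NC libraries, and the ACACB libraries with MEOX2 lie above those of NC while those of ACACA interleave.

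None of the genes that supply acetyl-CoA and NADPH was called. ACLY, which splits citrate, was at 51.3, 52.2 and 55.0 FPKM with MEOX2 and 50.01, 52.8 and 49.1 FPKM in NC, a log2 change of 0.06 (95% interval -0.11 to 0.23). ACSS2, which activates acetate, was at 10.3, 9.03 and 9.22 FPKM with MEOX2 and 12.8, 11.7 and 11.1 FPKM in NC. The ACSS2 groups did not overlap, and its log2 change was -0.29 (95% interval -0.51 to -0.07); the unadjusted p was 0.0157 and the limma adjusted p 0.208, so the gene was not called. ME1, the cytosolic malic enzyme that provides NADPH, was at 135.2, 119.8 and 118.8 FPKM with MEOX2 and 110.3, 109.5 and 123.4 FPKM in NC, where library 3 reached into the MEOX2 range (log2 change 0.12, limma adjusted p = 0.608).

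The enzymes of palmitate synthesis had overlapping values in the groups. FASN was at 22.8, 19.6 and 23.4 FPKM in MEOX2 libraries and 19.1, 20.9 and 20.6 FPKM in NC libraries (log2 change 0.11, 95% interval -0.10 to 0.32), and ACACA at 9.40, 8.31 and 9.36 FPKM in MEOX2 libraries and 7.44, 8.43 and 10.5 FPKM in NC libraries (0.04, -0.24 to 0.33). Neither gene was called. THRSP, a small nuclear protein that promotes lipogenesis, was at 2.72, 1.06 and 0.541 FPKM with MEOX2 and 3.49, 4.69 and 2.86 FPKM in NC. These levels rest on 14, 6 and 3 reads in MEOX2 libraries and 19, 26 and 16 reads in NC libraries. All MEOX2 libraries were lower than all NC libraries, MEOX2 library 1 by little, and the log2 change of -1.02 had a wide interval of -1.71 to -0.33 (unadjusted p = 0.00849, limma adjusted p = 0.149). Without MEOX2 library 1 THRSP was called lower, with a log2 change of -1.37 (limma adjusted p = 0.0285), and in the other 5 such fits it was not called.

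Triglyceride assembly held 6 genes, of which limma and limma voom called 0 and 1 had an unadjusted p under 0.05, as had 13.4% of all genes tested. The log2 change was negative for 5 of the 6, as it was for 50.7% of all genes tested. GPAM, the mitochondrial acyltransferase of the first step, was at 7.40, 5.66 and 5.81 FPKM with MEOX2 and 8.34, 7.29 and 8.95 FPKM in NC. MEOX2 library 1 lay just above the lowest NC library, so the groups overlapped (log2 change -0.34, 95% interval -0.62 to -0.05, unadjusted p = 0.0252, limma adjusted p = 0.264). DGAT2, a final acyltransferase of triglyceride synthesis, was at 2.33, 1.03 and 2.72 FPKM with MEOX2 and 2.49, 3.21 and 3.60 FPKM in NC, from 15 to 52 reads per library. Its log2 change of -0.48 came with an interval of -1.003 to 0.05 (limma adjusted p = 0.436), and without MEOX2 library 2, the lowest, it was smaller (-0.21). DGAT1, the other enzyme of that last step, and AGPAT2, the second acyltransferase, had log2 changes of -0.09 (95% interval -0.35 to 0.17) and -0.05 (-0.30 to 0.19). AGPAT2, the most abundant of the 6, was at 22.0, 25.1 and 20.2 FPKM with MEOX2 and 23.5, 25.5 and 21.0 FPKM in NC, and its libraries interleaved. The phosphatidate phosphatases LPIN1 and LPIN2 were at -0.04 and 0.02, with LPIN2 at 18.5 ± 1.26 and 18.2 ± 0.941 FPKM (MEOX2 and NC, SD, n = 3 each).

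At an unadjusted p under 0.05, 2 genes of the fatty acid and glycerolipid branch were higher and 3 lower, where 7.08% and 6.35% of all genes tested were. The values of the groups did not overlap for 4 of the 19 genes, 2 higher (FADS1 and ACSL3) and 2 lower (ACSS2 and THRSP), against 18.9% of all genes tested, 9.6% higher and 9.33% lower. For 14 of 19 genes limma's 95% interval lay within 1.5-fold either way, beside 80.9% of all genes. The 5 others were FADS1, ACSL3, THRSP, GPAM and DGAT2.

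Some markers of other cell states also differed between the groups. Over all genes tested, 1.16% fell and 1.51% rose. Of 14 listed mature adipocyte markers 9 were tested. Among these 9, 4 fell (ADIPOQ, FABP4, PLIN1 and CIDEC) and the other 5 were not called (CIDEA, LPL, PNPLA2, ADIRF and RBP4). The 12 adipocyte markers with a row in the table summed to 553 to 597 FPKM with MEOX2 and 738 to 886 FPKM in NC. RBP4 made up most of these sums. ADIPOQ, which encodes adiponectin, was at 7.99, 5.92 and 7.47 FPKM with MEOX2 and 36.7, 39.6 and 34.3 FPKM in NC, and FABP4, a fatty acid carrier, at 86.1, 84.2 and 68.4 FPKM with MEOX2 and 246, 254.5 and 205.4 FPKM in NC. PPARG, the master regulator of adipogenesis (PPARG2 in the table), was at 7.31, 8.14 and 8.83 FPKM with MEOX2 and 13.5, 14.2 and 13.4 FPKM in NC. Of 6 smooth muscle and pericyte markers with a row, 4 were tested: CNN1, a contractile protein, and CSPG4, a pericyte proteoglycan, rose, and TAGLN and MYH11 were not called. The 6 summed to 576 to 613 FPKM with MEOX2 and 478 to 491 FPKM in NC. TAGLN made up most of these sums, at 479 to 521 FPKM with MEOX2 and 412 to 419 FPKM in NC. The part of all these marker differences in the lipid gene values was not tested. In these bulk libraries fewer cells of a type and less RNA per cell cannot be told apart.

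The sterol synthesis genes had small changes on the log2(FPKM + 1) scale. All 16 genes had a 95% interval within 1.5-fold either way, beside 80.9% of all genes tested. PMVK came closest to that bound, a log2 change of 0.585, with an upper limit of 0.582. The log2 changes ran from -0.23 to 0.19, and for 15 of 16 the groups overlapped, against 18.9% of all genes without overlap. No sterol gene was called in any of 14 other fits that varied the pseudocount, filter, scaling, model or libraries used.

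In the mevalonate pathway, all 5 measured enzymes had positive log2 changes, of 0.01 to 0.19, as had 49.3% of all genes tested; limma and limma voom called 0 of them, and 0 had an unadjusted p under 0.05. HMGCS1, which makes HMG-CoA, was at 71.6, 71.5 and 68.4 FPKM with MEOX2 and 71.2, 66.0 and 71.4 FPKM in NC, a log2 change of 0.02 (95% interval -0.14 to 0.18). IDI1, the isopentenyl diphosphate isomerase, was at 29.0, 28.8 and 28.0 FPKM with MEOX2 and 29.1, 27.7 and 28.5 FPKM in NC, the smallest change of the branch at 0.01. The kinases MVK and PMVK and the decarboxylase MVD had overlapping groups. PMVK was at 9.41, 5.97 and 10.4 FPKM with MEOX2 and 10.1, 9.17 and 5.59 FPKM in NC, so that each group held 1 low library, and its interval of -0.48 to 0.58 was the widest of the sterol genes. MVD was at 19.9 ± 1.96 and 17.4 ± 2.69 FPKM, and MVK at 7.44 ± 0.630 and 6.82 ± 1.36 FPKM (MEOX2 and NC, SD, n = 3 each).

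From the making of squalene to lanosterol, all 3 genes had negative log2 changes, as had 50.7% of all genes tested, and none was called. FDFT1, the squalene synthase that commits farnesyl groups to sterols, was at 55.1, 64.3 and 65.0 FPKM with MEOX2 and 77.5, 75.2 and 64.4 FPKM in NC. NC library 3 fell inside the MEOX2 range and the other NC libraries above it, with a log2 change of -0.23 (95% interval -0.46 to -0.005, unadjusted p = 0.0462, limma adjusted p = 0.355). Without NC library 3 the log2 change was -0.31, with an adjusted p of 0.155. SQLE, the epoxidase that limits the later pathway, and LSS, which closes the sterol rings, were at -0.05 (95% interval -0.28 to 0.18) and -0.14 (-0.42 to 0.13). SQLE was at 42.8, 44.4 and 35.5 FPKM with MEOX2 and 44.7, 39.2 and 42.7 FPKM in NC.

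Of the enzymes that turn lanosterol into cholesterol, NSDHL, a decarboxylating dehydrogenase of the C4 demethylation complex, was the sterol gene without overlap. It was at 24.7, 20.6 and 23.5 FPKM with MEOX2 and 27.5, 27.2 and 26.1 FPKM in NC, a log2 change of -0.23 (95% interval -0.43 to -0.02, unadjusted p = 0.0338, limma adjusted p = 0.305). Its partners in that complex did not share the separation: MSMO1 had a log2 change of -0.08 and HSD17B7 one of 0.07, both with overlapping groups. MSMO1, the methyl oxidase of the complex, was at 41.5, 46.7 and 40.8 FPKM with MEOX2 and 47.6, 40.3 and 48.6 FPKM in NC. CYP51A1, the lanosterol demethylase, was at 25.2 ± 1.01 and 25.4 ± 1.32 FPKM, and DHCR7, which catalyses a last reduction, at 7.92 ± 1.29 and 9.35 ± 1.86 FPKM (MEOX2 and NC, SD, n = 3 each; limma adjusted p = 0.976 and 0.641).

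Among the sterol genes that sense, regulate or carry sterols, SREBF2, INSIG1 and STARD4 were not called. SREBF2 was at 67.3, 54.7 and 61.1 FPKM with MEOX2 and 61.0, 59.4 and 58.6 FPKM in NC, with NC libraries inside the MEOX2 range and a log2 change of 0.03 (95% interval -0.17 to 0.23). INSIG1, itself a sensitive target of the SREBP proteins, was at 25.1, 23.5 and 21.4 FPKM with MEOX2 and 25.1, 24.0 and 18.1 FPKM in NC (log2 change 0.07, 95% interval -0.22 to 0.36). STARD4, a cytosolic sterol carrier, was at 19.6, 19.8 and 17.5 FPKM with MEOX2 and 19.6, 15.99 and 20.2 FPKM in NC (0.03, -0.21 to 0.28). These are transcript levels; cleavage of the SREBP proteins and sterol content were not measured.

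**Figure D4:**
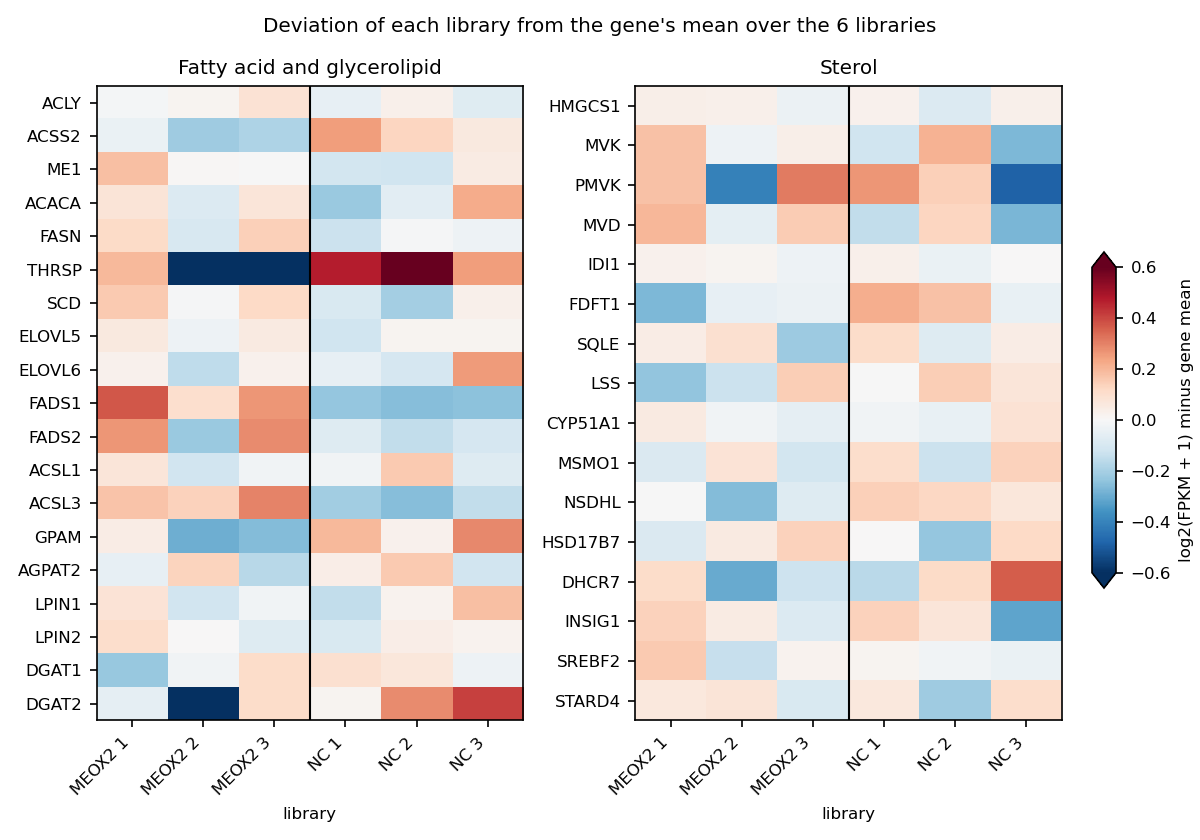
Deviation of each library (columns, MEOX2 then NC) from a gene's mean over the 6 libraries, on the log2(FPKM + 1) scale; colours end at 0.6 either way, which 2 genes, THRSP and DGAT2, pass. FADS1 and ACSL3 split at the line between groups, whereas PMVK, MVK, MVD and INSIG1 have their lowest value in NC 3, within the control group, and PMVK is nearly as low in MEOX2 2.

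Libraries of the same group also differed among themselves. The median SD within a group, on the log2(FPKM + 1) scale, was 0.10 with MEOX2 and 0.10 in NC for fatty acid and glycerolipid genes and 0.12 and 0.14 for sterol genes, beside 0.12 and 0.13 for all genes tested. NC library 3 held the lowest value for 4 of 16 sterol genes (MVK, PMVK, MVD and INSIG1) and the highest for 4 others, beside 21.5% lowest and 22.5% highest over all genes tested. NC library 2 held the lowest for 5 of 16, beside 19.5% of all genes. In MEOX2 library 2 none of the 35 genes reached its highest value, and 6 of 19 fatty acid and glycerolipid genes had their lowest; over all genes tested 15.9% had their highest and 17.9% their lowest value in that library. Summed FPKM of the fatty acid and glycerolipid genes were 729, 660 and 707 with MEOX2 and 631, 649 and 673 in NC, with MEOX2 library 2 inside the NC range. For the sterol genes the sums were 465, 452 and 449 with MEOX2 and 485, 462 and 460 in NC. The sums weight the genes of highest FPKM most.

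The rest of the pathway was taken from lists of 70 other genes, of which 62 were in the table. Among other fatty acid and glycerolipid genes, 29 of 37 in the table passed the filter. Of these 29, 1 fell, none rose and 28 were not called, where 1.16% of all genes tested fell and 1.51% rose. Their median log2 change was -0.02. The gene that fell was HACD2 (PTPLB in the table), the dehydratase of the very-long-chain elongation cycle. It was at 83.5, 70.2 and 80.3 FPKM with MEOX2 and 112.8, 98.6 and 108.6 FPKM in NC. The groups stood well apart, with a log2 change of -0.45 (SE 0.09, limma adjusted p = 0.0396), yet leaving out any single library ended the call (limma adjusted p = 0.0575 to 0.171). Its isozymes HACD1 and HACD3 (PTPLA and PTPLAD1 in the table) had log2 changes of -0.08 and -0.03 and were not called. Nor were HSD17B12, a reductase of the same cycle, at -0.18, and the elongase ELOVL1 at -0.02.

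ACACB, the carboxylase at the mitochondrial surface whose malonyl-CoA restrains fatty acid oxidation, was at 13.6, 8.81 and 11.2 FPKM with MEOX2 and 6.14, 7.03 and 7.56 FPKM in NC. It did not overlap between groups, and its log2 change was 0.61 (SE 0.15, unadjusted p = 0.00295, limma adjusted p = 0.0820). ACACB was called higher by limma voom (adjusted p = 0.00120) and without MEOX2 library 2 (log2 change 0.76, limma adjusted p = 0.0422). No other alternative fit called it, and with another library left out its limma adjusted p reached 0.263. MOGAT1, a monoacylglycerol acyltransferase, was at 1.79, 2.84 and 2.22 FPKM with MEOX2 and 4.53, 3.89 and 4.08 FPKM in NC, from 15 to 40 reads per library. Its groups also stood apart, with a log2 change of -0.66 and a limma adjusted p of 0.0574, and it was called lower only in the fit without an intensity trend (0.0496). MLXIPL, the carbohydrate response factor of lipogenesis, had at most 7 reads in any library, and its partner MLX was at 39.8 ± 4.36 and 44.8 ± 4.85 FPKM (MEOX2 and NC, SD, n = 3 each).

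The table held 25 other sterol and SREBP pathway genes that were examined, and all passed the filter. Limma and limma voom called 0 of them, and 0 had an unadjusted p under 0.05 in the limma fit; the median log2 change was 0.04. SREBF1 was at 19.8 ± 0.830 and 19.0 ± 0.635 FPKM, SCAP at 22.5 ± 1.39 and 25.2 ± 1.69 FPKM, and INSIG2 at 29.6 ± 2.91 and 31.8 ± 3.28 FPKM (MEOX2 and NC, SD, n = 3 each). Of the 25 genes, 2 had no overlap with MEOX2 higher (CYB5B and OSBP) and 2 with MEOX2 lower (SCAP and LBR). Over all genes tested 18.9% had no overlap. SCAP had a log2 change of -0.16 and a limma adjusted p of 0.504. LBR, a sterol reductase of the nuclear envelope, was at 16.1, 17.89 and 15.8 FPKM with MEOX2 and 18.6, 17.94 and 21.7 FPKM in NC (log2 change -0.21, limma adjusted p = 0.407). ABCA1, the cholesterol exporter, was at 29.0, 24.1 and 29.2 FPKM with MEOX2 and 21.8, 20.8 and 26.5 FPKM in NC (log2 change 0.25, limma adjusted p = 0.415). CYB5B, a cytochrome of the outer mitochondrial membrane, had a log2 change of 0.14 and an adjusted p of 0.480.

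**Figure D5:**
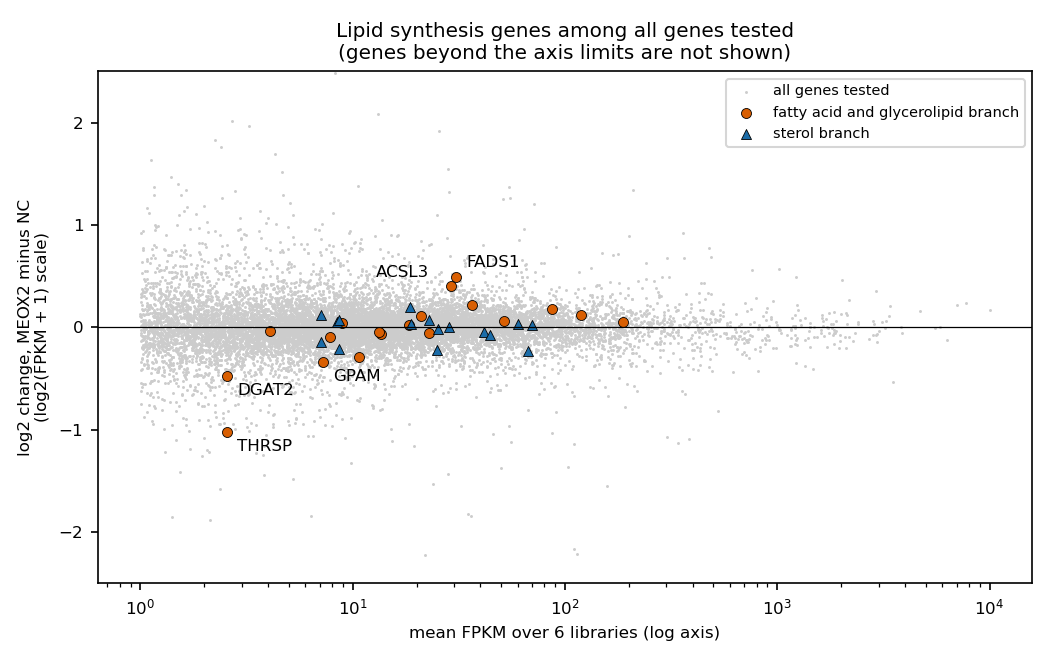
log2 change, MEOX2 minus NC (y axis, log2(FPKM + 1) scale), against mean FPKM over the 6 libraries (x axis, log axis) for all genes tested in grey, fatty acid and glycerolipid genes as orange circles and sterol genes as blue triangles; 1 gene, MEOX2, lies beyond the y axis. Most lipid genes sit close to 0 at middling to high levels, with FADS1 and ACSL3 above the others and THRSP and DGAT2, at 2.56 FPKM each, below.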

How the data were processed

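The deposited table held FPKM values of the authors for 6 libraries of sheep cells, 1 column per sample. The submitters' processing notes name CASAVA 1.8, fastp, HISAT2 2.0.5, DESeq2 1.20.0 and featureCounts 1.5.0-p3 without roles; genome build, annotation and strand setting are not stated there. Multiplied by gene length, FPKM gave whole reads for 100% of positive values (tolerance 0.001 of a read). Library sizes behind the FPKM were 0.967 to 1.02 times these reads, so a scaling beyond read totals was already applied. Levels resting on few reads are given with them. Of the 35 genes, 4 overlap another row of the table, none with more than 6 reads.

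limma 3.58.1 (R 4.3.3) was fitted to log2(FPKM + 1), with an intensity trend and no covariates, across the 13121 genes averaging 1 FPKM or more, with Benjamini-Hochberg adjustment over all of them and a threshold of 0.05; this scale understates changes of low genes. No p was adjusted over the lipid genes alone. Intervals are limma's 95% intervals for single genes, not adjusted for their number. Chi-square per gene between libraries of 1 group was 3.70 to 12.1 (about 1 under sampling noise), so none was counted as a copy.

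The members, lists and tests were chosen with earlier results of these data known. The rule for values per library took MEOX2, members called or with an unadjusted p under 0.05, the most abundant member of each role, other pathway genes that were called or among the 4 smallest p of their list, and ADIPOQ, FABP4 and PPARG; further genes were chosen after their values were seen. Some pathway genes are not reported here. Of 70 other pathway genes, 56 matched by symbol, 2 by a RefSeq synonym (ARS-UI_Ramb_v3.0), 4 by a former symbol and 8 not at all. Alternatives were other pseudocounts (0.1 and 0.5), filters, quantile scaling, no trend, limma voom on recovered reads, a replicate block and each library left out. Deviations of same-numbered libraries correlated at -0.0747, 0.0204 and -0.00417, so the numbers were not taken as pairs. Tables and figures were made with pandas 2.3.3, numpy 2.4.6 and matplotlib 3.10.9 in Python 3.11.15.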

Additional observations from a re-analysis of the deposited data

How the results depend on the processing

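No called lipid gene changed sign in any of the 14 alternative fits, and no sterol gene, of the 16 members or the 25 others, was called in any of them. The count of fatty acid and glycerolipid members called, 2, was 0 without a filter on low values, 1 without an intensity trend and 0 with the replicate block, and 0 to 1 with a library left out; the 1 called without MEOX2 library 1 was THRSP, lower. FADS1 and ACSL3 narrowly missed the threshold without a filter (adjusted p = 0.0534 and 0.0542) and with the replicate block (0.0517 and 0.0799), and ACSL3 without the trend (0.0698). The count over all genes, 350, was 194 without a filter, where more genes were tested, 574 by limma voom, and 117 to 276 with a library left out; 327 of the 350 were among the 574. Of the other fatty acid and glycerolipid genes, 1 was called (HACD2). This count was 0 without a filter, 0 with quantile normalisation and 2 by limma voom (HACD2 and ACACB). Without an intensity trend the 1 gene called was MOGAT1, and HACD2 lost its call. With a library left out the count was 0 to 1, and the 1 was ACACB, higher, without MEOX2 library 2. MEOX2 passed in every fit, with log2 changes of 3.49 to 3.74. Of the 33 uncalled members, 16 had the opposite sign in at least 1 alternative, all with a log2 change of at most 0.091 in size in the main fit. The change in an alternative could be larger: PMVK was at 0.053 in the main fit and -0.175 without NC library 3. THRSP, DGAT2 and MOGAT1 rest on at most 52 reads in any library. Fits with fewer samples have less power. The causes of the shifts between fits were not tested.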
